A study of Mus musculus with 2 samples.

Results

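The genes by which a T cell becomes a CD4 helper cell or a CD8 cytotoxic cell were examined for GATA3 binding. The 4 genes were Zbtb7b and Cd4 of the CD4 lineage, and Cd8a and Cd8b1 of the CD8 lineage. They were examined in 3 windows of the mm9 genome, given by position and chosen with earlier results of these data known. The Zbtb7b window ran from 89150001 to 89230000 on chromosome 3 (80 kb), the Cd4 window from 124790001 to 124870000 on chromosome 6 (80 kb), and the window of Cd8a and Cd8b1 from 71280001 to 71380000 on chromosome 6 (100 kb). Together they held 5692 of 22963959 reads in one library and 3980 of 15561681 in the other, and 24 of the 64518 peaks of the genome.

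Both libraries were made by chromatin immunoprecipitation with a GATA3 antibody from CD4+ T cells of C57BL/6 mice, CD25-negative and CD62L-positive at isolation. One was labelled with TGF-β and IL-4. The protocol's doses were 2 ng/ml for TGF-β1, 10 ng/ml for IL-4 and 1 µg/ml for each of the stimulating antibodies, against CD3 and CD28. No treatment was named for the other. The culture protocol, shared by both, gives TGF-β1 with or without IL-4, so whether the second library stands for TGF-β1 alone or for cells without cytokine was not settled by the labels. The time in culture and the age and number of the mice were not given in the sources used here. There was 1 library per condition and no input library was used here, so differences between the conditions have no replicate check and carry no p-value. No expression was measured in these samples, so the CD4+ label could not be set against marker genes.

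A T cell precursor in the thymus that carries both coreceptors keeps one of them. Zbtb7b encodes ThPOK, the zinc-finger factor that commits cells to the CD4 lineage and holds CD8-lineage genes in check, and GATA3 is known to act upstream of it. Cd4 encodes the coreceptor that binds MHC class II, and Cd8a and Cd8b1 encode the α and β chains of the coreceptor that binds MHC class I. Runx factors, above all Runx3, act on the opposite side: they silence Cd4 and Zbtb7b in CD8-lineage cells. In the RefSeq gene order of GRCm38.p6, Cd8b1 and Cd8a lie next to each other, Cd4 lies between Gpr162 and Lag3, and Zbtb7b lies between Dcst2 and Lenep. No mm9 annotation was used here, so peaks are given by position, and whether a peak lies in a promoter, an exon or an intron was not determined. Which gene a peak belongs to was not determined either, and a peak named after a gene is a peak in that gene's window. It was likewise not determined whether the last window covers the whole of Cd8b1.

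RefSeq's table of promoter sequences (GRCm38.p6) held Zbtb7b, with 2 start sites, and Cd8a. The 250 bases before each start are printed so that the letters GATA, the core of the GATA3 motif, can be read beside the starts of a CD4-lineage and a CD8-lineage gene. Capitals mark GATA or its reverse complement TATC. Positions here are of GRCm38.p6 and not of mm9, and no read was counted against them. The sequences are chr3:89393379-89393628 (minus strand), chr3:89387672-89387921 (minus strand) and chr6:71373177-71373426 (plus strand).
Zbtb7b, first start: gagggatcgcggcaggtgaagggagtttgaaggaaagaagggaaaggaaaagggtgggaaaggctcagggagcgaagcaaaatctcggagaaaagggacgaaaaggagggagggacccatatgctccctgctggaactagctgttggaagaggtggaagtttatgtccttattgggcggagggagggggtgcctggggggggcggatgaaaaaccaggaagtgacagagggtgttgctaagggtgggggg
Zbtb7b, second start: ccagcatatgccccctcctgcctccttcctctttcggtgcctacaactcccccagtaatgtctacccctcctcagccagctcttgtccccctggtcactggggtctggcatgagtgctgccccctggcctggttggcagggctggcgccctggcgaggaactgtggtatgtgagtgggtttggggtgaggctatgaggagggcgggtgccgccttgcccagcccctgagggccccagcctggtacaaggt
Cd8a: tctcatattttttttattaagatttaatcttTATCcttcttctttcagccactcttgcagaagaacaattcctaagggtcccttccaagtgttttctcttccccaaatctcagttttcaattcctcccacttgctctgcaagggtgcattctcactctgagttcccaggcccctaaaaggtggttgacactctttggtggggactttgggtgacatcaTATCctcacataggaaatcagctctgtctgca
Neither Zbtb7b stretch held GATA on either strand, and the Cd8a stretch held it 2 times, beginning 219 and 32 bases before the start. Of 32851 promoter stretches of this length 53.6% held GATA on either strand. The longer form AGATAA, which contains GATA, was in none of the 3 stretches (0 matches) and in 9.99% of all. These are letter matches in short windows, not measured sites.

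GATA3 reads were densest at Cd4 in both libraries. Reads are given as RPM, reads per 1000000 reads of the library on chromosomes 1 to 19, X and Y. In the Cd4 window there were 2517 reads, or 109.6 RPM, with no treatment named and 1829, or 117.5 RPM, with TGF-β plus IL-4. Per kb these were 1.37 and 1.47 RPM, against a mean of 0.422 RPM per kb over the covered genome. Of 24942 stretches of 80 kb that tile the covered genome, 0.437% and 0.702% held at least as much as Cd4.

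The Zbtb7b window held 1767 reads (76.9 RPM) with no treatment named and 1140 (73.3 RPM) with TGF-β plus IL-4, or 0.962 and 0.916 RPM per kb. At least as much was found in 4.25% and 5.95% of the 80-kb stretches. The window of Cd8a and Cd8b1 held 1408 reads (61.3 RPM) and 1011 (65.0 RPM), or 0.613 and 0.650 RPM per kb, a level reached in 27.2% and 20% of 19975 stretches of 100 kb. Both windows of CD4-lineage genes thus had more reads per kb than the window of CD8-lineage genes, in each library. With no treatment named, 134 of 500 stretches of 200 bp held no read at Cd8a and Cd8b1. At Zbtb7b 39 of 400 were empty, and at Cd4 37 of 400. Lengths here and below include any sequence where reads cannot be placed, and its part in this order was not tested.

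With scaling by total reads, the ratios between the libraries over whole windows were close to 1. The ratio of RPM (TGF-β plus IL-4 divided by no treatment named) was 0.952 at Zbtb7b (exact 95% interval 0.883 to 1.03), 1.07 at Cd4 (1.01 to 1.14) and 1.06 at Cd8a and Cd8b1 (0.976 to 1.15). The intervals at Zbtb7b and at Cd8a and Cd8b1 included 1, and the lower bound at Cd4 lay just above it. Among 26 stretches of 10 kb the ratio, scaled by total reads, ran from 0.730 to 1.32. Its interval lay above 1 in 2 stretches, both at the upper end of the Cd4 window, and below 1 in 2, both in the Zbtb7b window. From 124860001 to 124870000 the Cd4 window held 17.5 RPM against 22.7 RPM with TGF-β plus IL-4, a ratio of 1.30 (1.12 to 1.5), the highest lower bound of the 26.

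**Figure D1:**
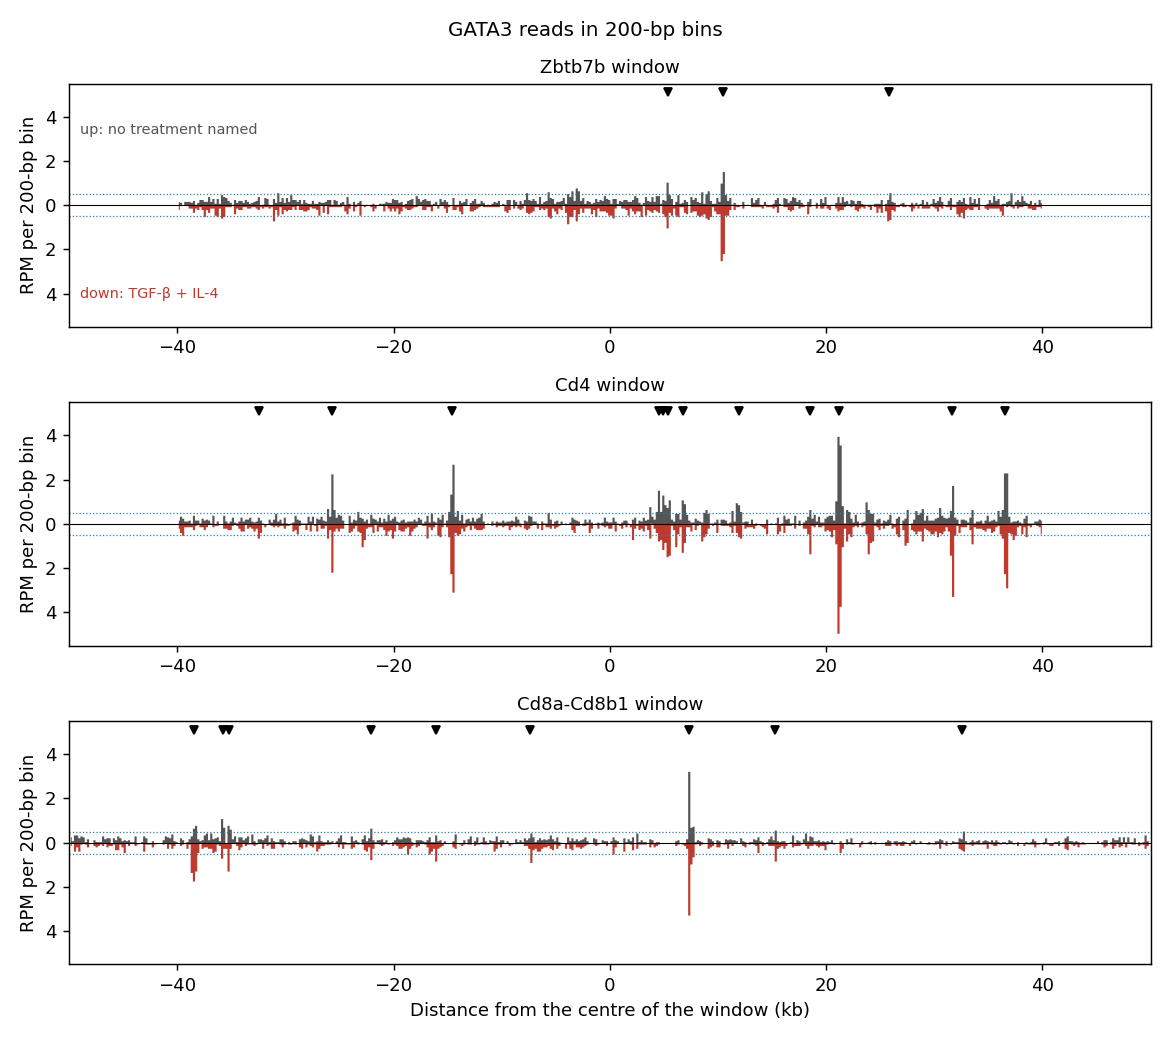
RPM in 200-bp bins along the 3 windows, against the distance from the window's centre in kb. Bars up are the library with no treatment named and bars down the TGF-β plus IL-4 library, dotted lines mark 0.5 RPM, and triangles mark the 24 peaks; the highest bin lies in the same place in both libraries at Cd4 (3.96 and 4.95 RPM) and at Cd8a and Cd8b1 (3.22 and 3.28 RPM).

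Bins of 200 bp showed how the reads were laid out. A bin counted as enriched at 0.5 RPM or more, which 1.00% of all 11844365 bins reached with no treatment named, 1.58% with TGF-β plus IL-4 and 0.641% in both. Bins were counted without cutting the libraries to equal depth, and 0.5 RPM is fewer reads in the shallower TGF-β plus IL-4 library. Counts of enriched bins are therefore not a like comparison between the libraries. At Cd4 46 of 400 bins (11.5%) were enriched with no treatment named, 57 (14.2%) with TGF-β plus IL-4 and 33 in both. At Zbtb7b 15 of 400 (3.75%) and 27 (6.75%) were enriched, with 10 in both. At Cd8a and Cd8b1 12 of 500 (2.40%) and 15 (3%) were enriched, with 9 in both. At this minimum the share of enriched bins was higher in both CD4-lineage windows than in the CD8-lineage window. At a minimum of 1 RPM the order of Zbtb7b turned with TGF-β plus IL-4, to 0.75% of its bins against 1% at Cd8a and Cd8b1, while with no treatment named it stayed at 0.75% against 0.40%, and Cd4 had the highest share in both.

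The enriched bins of the 3 windows differed in how far they gathered in peaks. At Cd8a and Cd8b1, 1 of the 12 bins and 4 of the 15 lay outside a peak. At Zbtb7b, 11 of 15 and 22 of 27 did, and at Cd4 23 of 46 and 33 of 57. Reads outside peaks were also denser at the CD4-lineage genes, at 0.923 and 0.846 RPM per kb at Zbtb7b and 1.05 and 1.08 at Cd4, against 0.526 and 0.526 at Cd8a and Cd8b1. Without an input library, GATA3 binding that is spread out and reads from open chromatin cannot be told apart there. The bins of a window rose and fell together in the libraries, with a Pearson r of 0.89 over 400 bins at Cd4, 0.80 over 500 at Cd8a and Cd8b1 and 0.65 over 400 at Zbtb7b. Bins share their surroundings and the r depends on depth, so these are descriptions.

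Peaks were called within each library as places where coverage stood above the genome rate and above the rate in the surrounding 10 kb (q under 0.01), at 15561681 reads per library. Peaks of both libraries that overlapped were joined. The Cd4 window had 12 such peaks (15 per 100 kb), the window of Cd8a and Cd8b1 9 (9 per 100 kb) and the Zbtb7b window 3 (3.75 per 100 kb), against 2.72 per 100 kb over the covered genome. At least as many were found in 1.17%, 8.04% and 37.8% of stretches of the same length. Added up, the CD4-lineage windows had 15 peaks (9.38 per 100 kb), close to the density at the CD8-lineage genes, because Cd4 and Zbtb7b lay on either side of it.

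This order depended on what a peak was measured against. With the genome rate alone as background, a setting chosen after the data were seen, Zbtb7b had 28 peaks (35.0 per 100 kb), Cd4 46 (57.5) and Cd8a and Cd8b1 17 (17.0), against 7.96 per 100 kb over the genome. Zbtb7b then stood above Cd8a and Cd8b1, as it did in reads per kb. With a background of 5 kb it had 1 peak, and with fragments of 200 bp it had 6.

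**Figure D2:**
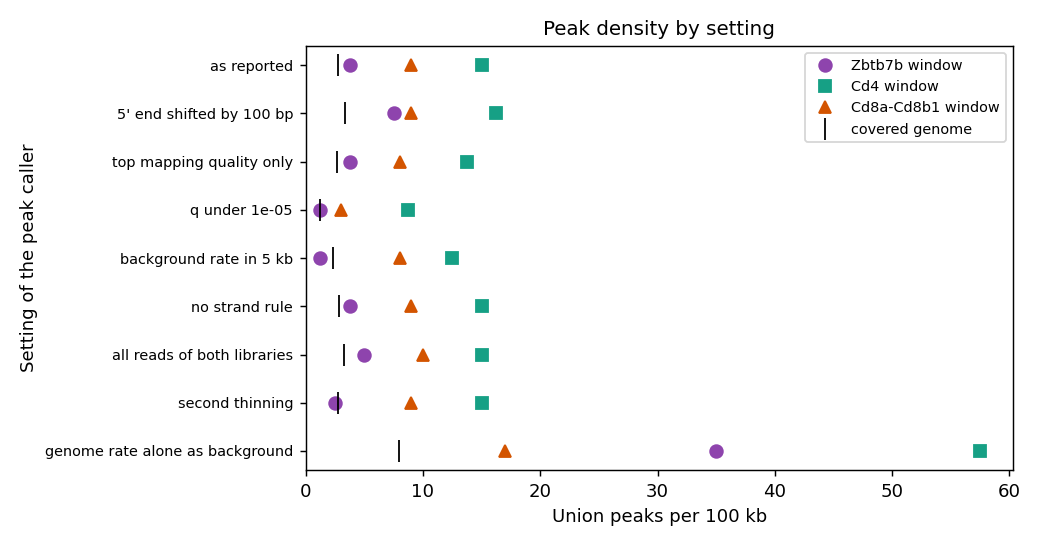
Union peaks per 100 kb (x axis) in each window under each setting of the peak caller (y axis), with the covered genome as a bar. Cd4 is highest under every setting drawn, from 8.75 to 57.5, while Zbtb7b lies below Cd8a and Cd8b1 except with the genome rate alone as background.

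At Zbtb7b a single peak was called in both libraries. It lay at chr3:89200281-89200580, with 55 reads (2.40 RPM) with no treatment named and 70 (4.5 RPM) with TGF-β plus IL-4, a ratio of 1.88 (1.30 to 2.72). Its highest point held 35 and 47 fragments, 10.2 and 15.7 times the surrounding 10 kb, and by mean RPM it ranked above 89.5% of all union peaks. Its interval lay above 1 but the ratio was under 2. The highest bin of the window fell inside this peak in each library, at 1.52 RPM from 89200401 to 89200600 with no treatment named and at 2.51 RPM from 89200201 to 89200400 with TGF-β plus IL-4.

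The other Zbtb7b peaks were weak. The peak at chr3:89195291-89195390, called with no treatment named alone, had 19 reads (0.827 RPM) against 10 (0.643 RPM), a ratio of 0.777 (0.323 to 1.76). The peak at chr3:89215731-89215960, called with TGF-β plus IL-4 alone, had 10 reads (0.435 RPM) against 15 (0.964 RPM), a ratio of 2.21 (0.930 to 5.51). Both intervals included 1. Peaks held 4.75% of the window's reads with no treatment named (Wilson 95% interval 3.86% to 5.85%) and 8.33% with TGF-β plus IL-4 (6.87% to 10.1%), the smallest shares of the 3 windows.

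At Cd4, 7 of the 12 peaks were called in both libraries, against 39.7% of all union peaks. The strongest Cd4 peak had a ratio near 1 with scaling by total reads. It spanned chr6:124850961-124851460 and held 196 reads (8.54 RPM) with no treatment named and 142 (9.12 RPM) with TGF-β plus IL-4, a ratio of 1.07 (0.855 to 1.33). By mean RPM it ranked above 97.7% of all union peaks, and its highest bin, from 124851001 to 124851200, held 91 and 77 reads. Its summit was at 124851151 in each library.

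Another 3 strong Cd4 peaks had ratios whose intervals included 1. The peak at chr6:124866381-124866730 had 106 reads (4.62 RPM) against 80 (5.14 RPM), a ratio of 1.11 (0.823 to 1.5). The peak at chr6:124815281-124815540 had 89 reads (3.88 RPM) against 77 (4.95 RPM), a ratio of 1.28 (0.929 to 1.75). The peak at chr6:124804231-124804420 had 52 reads (2.26 RPM) against 34 (2.18 RPM), a ratio of 0.965 (0.607 to 1.52). Each of these was called in both libraries, with summits at most 30 bp apart.

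Among the 5 Cd4 peaks with the highest mean RPM, the highest ratio was at the peak chr6:124861531-124861810. It had 54 reads (2.35 RPM) with no treatment named and 73 (4.69 RPM) with TGF-β plus IL-4, a ratio of 1.99 (1.38 to 2.89), just short of 2. It lies in the 10-kb stretch with the highest lower bound. The weak peak at chr6:124848411-124848530, called with TGF-β plus IL-4 alone, had 11 reads against 18, or 0.479 against 1.16 RPM, a ratio of 2.41 (1.08 to 5.66). The remaining 6 Cd4 peaks had a mean of 0.538 to 1.58 RPM and ratios from 0.470 to 2.53, with 3 of 6 over 1. A group of 4 peaks fell between 124834451 and 124836860, with 230, 330 and 1220 bp between them. Peaks held 26.0% of the window's reads with no treatment named (24.3% to 27.7%) and 28.7% with TGF-β plus IL-4 (26.7% to 30.8%), against 8.50% and 12.5% of the reads of the whole libraries.

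**Figure D3:**
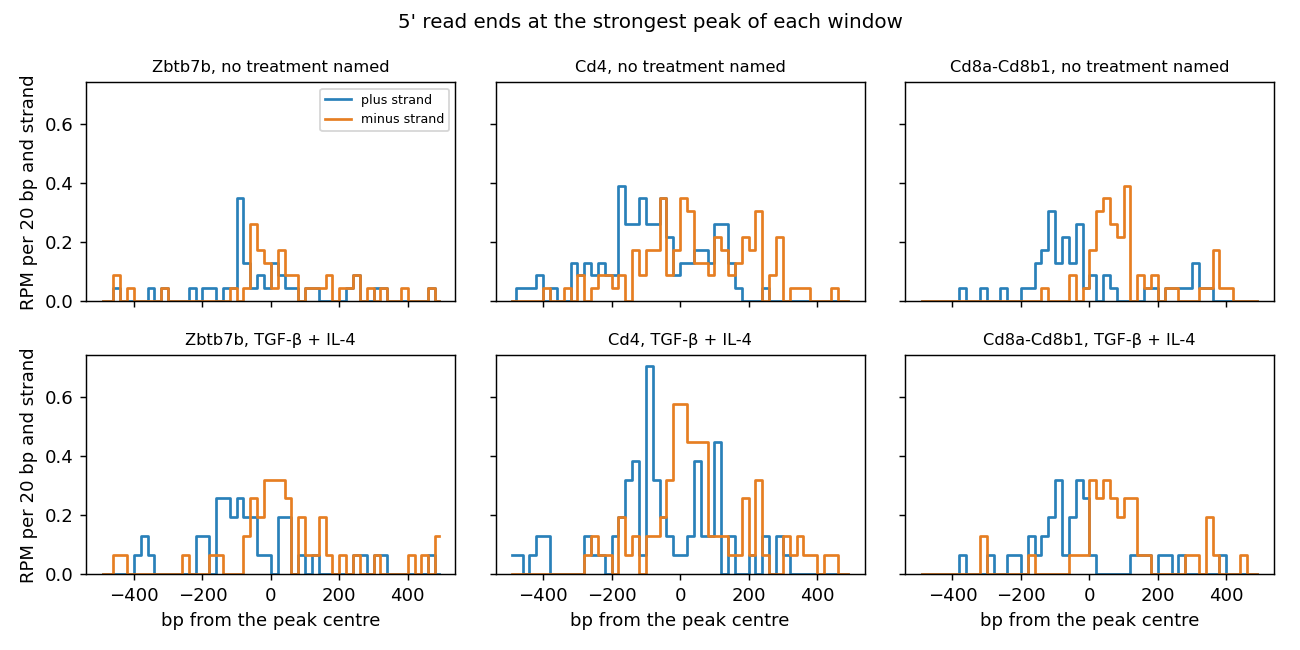
Read starts (5′ ends) in RPM per 20 bp, by strand, against the distance in bp from the centre of the strongest peak of each window, with no treatment named above and TGF-β plus IL-4 below. Plus-strand starts lie mostly left of minus-strand starts, and in the 500-bp Cd4 peak the starts of each strand spread over a wider stretch than in the 240-bp peak at Cd8a and Cd8b1.

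At Cd8a and Cd8b1 2 of the 9 peaks were called in both libraries and 6 with TGF-β plus IL-4 alone. Over all union peaks these shares were 39.7% and 43.6%, and whether the window departs from them was not tested. The strongest, at chr6:71337231-71337470, had 82 reads (3.57 RPM) with no treatment named and 61 (3.92 RPM) with TGF-β plus IL-4, a ratio of 1.10 (0.775 to 1.55). Its summit stood at 28.4 and 29.8 times the surrounding 10 kb, further than any other peak of the 3 windows in both libraries, against 12.3 and 17.5 times at the strongest Cd4 peak. The top mapping quality was reached by 74.4% and 77.0% of its reads, compared with 87.8% and 88.3% over the libraries, and with top-quality reads alone its ratio was 1.13 (0.756 to 1.68). The part of read placement in its height was not tested. The other peak called in both, at chr6:71294651-71294850, had 25 reads (1.09 RPM) against 20 (1.29 RPM), a ratio of 1.18 (0.622 to 2.21).

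Near the lower end of the window a pair of peaks 2380 bp apart had ratios on either side of 1. The peak at chr6:71291271-71291740 had 36 reads (1.57 RPM) with no treatment named and 62 (3.98 RPM) with TGF-β plus IL-4, a ratio of 2.54 (1.66 to 3.95). The peak at chr6:71294121-71294270 had 38 reads (1.65 RPM) against 14 (0.90 RPM), a ratio of 0.544 with an interval that included 1 (0.272 to 1.03). Each was called in 1 library alone, the first with TGF-β plus IL-4 and the second with no treatment named. In the second, 73.7% and 71.4% of the reads were of top mapping quality, and with these reads alone the ratio was 0.524 (0.227 to 1.11). In the first, the median minus-strand start lay 214.5 bp past the median plus-strand start with TGF-β plus IL-4 and at -17.0 bp with no treatment named, while the fragment length used here was 126 bp.

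The weak peak at chr6:71322601-71322720 had 7 reads (0.305 RPM) against 14 (0.90 RPM), a ratio of 2.95 (1.11 to 8.64). It was called with TGF-β plus IL-4 alone. The remaining 4 had a mean of 0.334 to 0.507 RPM and ratios from 1.33 to 2.07, with intervals that included 1. They were called with TGF-β plus IL-4 alone on 7 to 10 reads. Peaks held 15.6% of the window's reads (13.8% to 17.5%) with no treatment named and 20.4% (18.0% to 23.0%) with TGF-β plus IL-4.

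**Figure D4:**
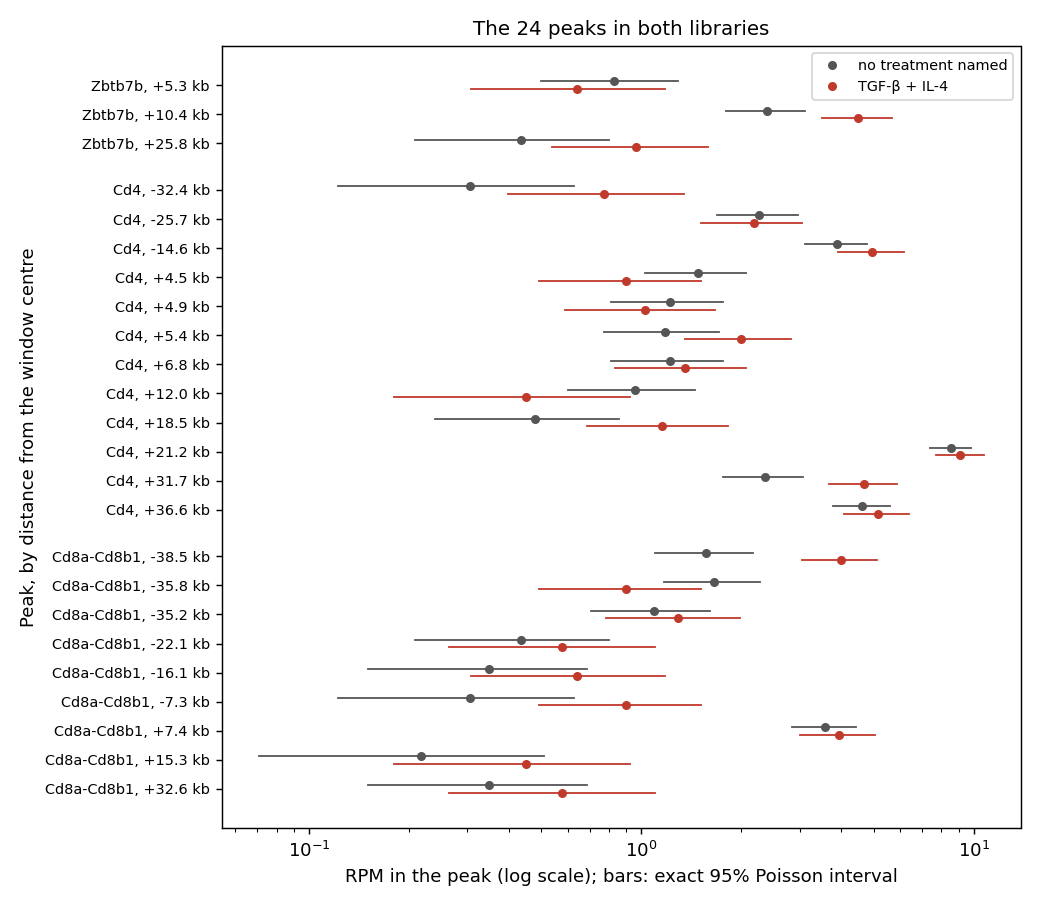
RPM in each of the 24 peaks (log scale), named by window and distance from its centre in kb, with exact 95% Poisson intervals in each library. The strongest peak of Cd4 (8.54 and 9.12 RPM) and of Cd8a and Cd8b1 (3.57 and 3.92 RPM) have intervals that overlap between the libraries, and that of Zbtb7b (2.40 and 4.5 RPM) has not.

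A size rule was applied to every union peak. The rule asked for a ratio of 2 or more, or of 0.5 or less, and for an interval without 1. Of 64518 union peaks 25.1% were higher with TGF-β plus IL-4 by this rule and 3.84% were lower. Of the 24 peaks here 3 (12.5%) were higher and 0 were lower: 0 of 3 at Zbtb7b, 1 of 12 at Cd4 and 2 of 9 at Cd8a and Cd8b1. Each of the 3 was called with TGF-β plus IL-4 alone, so it entered the set through the library in which it is higher. The split by window changed with the reads. With the top mapping quality alone it was 1 of 3 at Zbtb7b, 0 of 11 at Cd4 and 2 of 8 at Cd8a and Cd8b1, as the Cd4 peak from 124848411 fell to 2.28 (0.920 to 5.98) and the Zbtb7b peak from 89215731 rose to 2.45 (1.002 to 6.34). With the 100-bp shift it was 0 of 6, 2 of 13 and 1 of 9, and the peak from 124848411 had a ratio of 1.60 (0.673 to 3.83). Whether 3 of 24 departs from the share of all peaks was not tested. The median ratio was 1.30 over the 24 peaks and 1.57 over all union peaks. Over the 10 peaks called in both libraries it was 1.11, against 1.34 over 25616 such peaks of the genome. Ratios over 1 were found at 8 of the 10 and at 19698 of the 25616.

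The direction of these ratios rests on the scaling. When the libraries were scaled to a median ratio of 1 at the peaks they shared, which lowers every log2 ratio by 0.42, 0 of the 24 were higher and 3 were lower, and every ratio between 1 and 1.34 fell below 1. The strongest Cd4 peak then had a ratio of 0.797, with an interval below 1 (0.638 to 0.994). The Zbtb7b peak called in both libraries had a ratio of 1.40 (0.969 to 2.03), the Cd4 peak from 124861531 one of 1.49 (1.03 to 2.15) and the peak from 71291271 near Cd8a and Cd8b1 one of 1.89 (1.24 to 2.94). The 3 lower peaks were the peak at chr6:71294121-71294270, with a ratio of 0.405 (0.203 to 0.765), and a pair at Cd4 named here after their values were seen. These were chr6:124834451-124834630, with 34 reads against 14 and a ratio of 0.453 (0.225 to 0.867), and chr6:124841921-124842040, with 22 against 7 and a ratio of 0.350 (0.126 to 0.848). Each of the 3 was called with no treatment named alone, so it entered the set through the library in which it has more RPM.

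**Figure D5:**
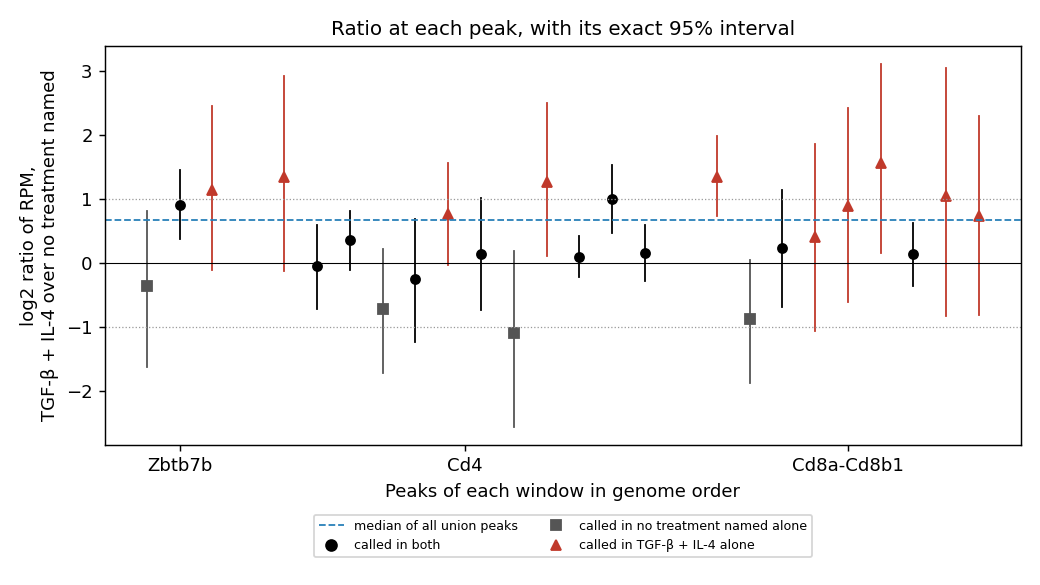
Log2 ratio of RPM (TGF-β plus IL-4 divided by no treatment named) at each of the 24 peaks in genome order within its window, with exact 95% intervals. The dashed line is the median of all union peaks (0.67), dotted lines mark ratios of 2 and 0.5, and the intervals of 2 of 3 peaks at Zbtb7b, 10 of 12 at Cd4 and 7 of 9 at Cd8a and Cd8b1 include 0 (a ratio of 1).

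The CD4-lineage and CD8-lineage windows were also compared directly, by the ratio of their ratios, for 3 pairs of windows. This measure does not depend on the scaling of the libraries. In the reads inside peaks, Cd4 against Cd8a and Cd8b1 gave 0.853 (0.679 to 1.07) and Zbtb7b against Cd8a and Cd8b1 gave 1.2 (0.835 to 1.73). Both intervals included 1. The first did not when reads and peaks were limited to the top mapping quality, which gave 0.758 (0.591 to 0.971), a lower ratio at Cd4 than at Cd8a and Cd8b1. Whether peaks of the CD4-lineage windows differ from those of the CD8-lineage window between the libraries thus depended on the reads used for Cd4. For Zbtb7b no difference was detectable at this depth. Zbtb7b against Cd4, both of the CD4 lineage, gave 1.41 (1.02 to 1.96).

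With all reads of the window the values were 1.01 (0.914 to 1.12) for Cd4 and 0.899 (0.804 to 1.00) for Zbtb7b, each against Cd8a and Cd8b1, and 0.888 (0.806 to 0.978) for Zbtb7b against Cd4. Zbtb7b therefore lay above Cd4 in its peak reads and below it in all reads. Inside peaks its ratio was 1.67 (1.23 to 2.27) and outside them 0.916 (0.847 to 0.990). At Cd4 the ratio was 1.18 (1.05 to 1.33) inside and 1.03 (0.962 to 1.11) outside, and at Cd8a and Cd8b1 1.39 (1.14 to 1.69) inside and 0.999 (0.912 to 1.09) outside. In each window the ratio was higher inside peaks than outside. Peaks were chosen in the same reads, and 10 of the 24 were called with TGF-β plus IL-4 alone against 4 with no treatment named alone, which favours ratios over 1 inside peaks. Over all union peaks 43.6% were called with TGF-β plus IL-4 alone and 16.7% with no treatment named alone. Those called with TGF-β plus IL-4 alone were 1 of 3 at Zbtb7b, 3 of 12 at Cd4 and 6 of 9 at Cd8a and Cd8b1. The comparisons of windows in peak reads are therefore not free of this choice.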

How the data were processed

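GATA3 ChIP-seq reads of 2 libraries, 1 per condition, were analysed. Per the submitters' processing notes the build was mm9 and the tools CASAVA 1.0 and Bowtie2, with no role given. In the deposited files each line is a read of 25 bases, with a mapping quality score that the authors gave each read (11 to 42). The file names state a filter on that score and the removal of duplicates, and 0 reads shared a position and strand within a library, which compresses the strongest sites. Reads on chromosomes 1 to 19, X and Y numbered 22963959 and 15561681. The other column used, the read length, was deposited by the authors for each read.

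Counts of reads were made here from the deposited reads. Each 5′ end was moved 63 bp inwards to the fragment centre and counted in 200-bp bins, peaks and windows, as RPM (reads per 1000000 reads of the library). Peaks were called with code written in Python 3.11.15 (numpy 2.4.6, scipy 1.17.1, pandas 2.3.3). Each 10 bp, the coverage by 126-bp fragments was compared with a Poisson rate (the genome rate or that of the surrounding 10 kb, whichever was larger) at a Benjamini-Hochberg q under 0.01 over the covered genome, 2369246000 bp. Gaps of up to 100 bp were closed, and a peak had to span 100 bp or more and to hold 20% or more of its reads on either strand. For calling, the deeper library was cut down at random to 15561681 reads. Peaks overlapping by 1 bp were joined to union peaks and assigned to a window by their midpoint.

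Ratios are TGF-β plus IL-4 divided by no treatment named, with 95% intervals from the exact Clopper-Pearson method on each split of reads. Ratios of ratios carry the exact interval of the conditional odds ratio, and shares of reads a Wilson 95% interval. All these intervals cover counting error alone, since neither condition has a replicate library from which variation between samples could be measured. The caller and the size rule were tested on simulated data. Of simulated sites with 4-fold coverage the caller found 2 of 500, with 8-fold coverage 130 of 500 and with 32-fold coverage 499 of 499. The simulated background was flat at the genome rate, so these shares do not carry over to windows with denser reads. Among 64518 simulated peaks, 2-fold changes passed the size rule in 32 of 100 cases and 4-fold changes in 85 of 100. Of the unchanged peaks 1388 of 64318 passed it.

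The windows and genes were chosen with earlier results of these data known. Peaks were named by a rule: in each window the 5 with the highest mean RPM, every peak past the size rule, and the highest bin of each library. The alternatives were other scalings, shift, mapping quality, q, background rate, strand rule, depth, thinning, bins, ratio and window length. Figures were drawn with matplotlib 3.10.9.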

Additional observations from a re-analysis of the deposited data

Results flagged for a closer look

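Peaks also lay just outside the windows, where the comparisons did not look. Within 20 kb of the window on either side there were 5 peaks at Zbtb7b, 2 at Cd4 and 2 at Cd8a and Cd8b1. With scaling by total reads, 5 of these 9 were higher by the size rule with TGF-β plus IL-4 and 0 were lower. Of all 64518 union peaks 25.1% were higher and 3.84% were lower, and within the windows 3 of 24 were higher. Whether 5 of 9 departs from the share of all peaks was not tested. Scaling to the shared peaks multiplies each ratio by 0.745. Higher peaks were 3 of 5 beside Zbtb7b, 1 of 2 beside Cd4 and 1 of 2 beside Cd8a and Cd8b1. Those beside Zbtb7b and Cd4 were called with TGF-β plus IL-4 alone, so they entered the set through the library in which they are higher. The higher peak beside Cd8a and Cd8b1 was called in both libraries. The 3 beside Zbtb7b had ratios of 3.44, 2.32 and 2.95 on 14, 22 and 16 reads with TGF-β plus IL-4, and the one beside Cd4, at chr6:124881391-124881600, a ratio of 5.90 (1.59 to 32.6) on 12 reads against 3. The strongest beside Zbtb7b, at chr3:89141171-89141480, had 67 reads with no treatment named and 75 with TGF-β plus IL-4, a ratio of 1.65 (1.17 to 2.33), and a mean RPM (3.87) above that of every peak within the window. Beside Cd4, the peak at chr6:124778081-124778460 had 151 reads against 134, a ratio of 1.31 (1.03 to 1.66). Beside Cd8a and Cd8b1, the higher peak, at chr6:71390641-71391320, had 43 reads against 68, a ratio of 2.33 (1.57 to 3.50). On the other side, chr6:71274221-71274370, called with no treatment named alone, had 20 against 6, a ratio of 0.443 (0.145 to 1.14). These peaks were picked out here after their values were seen. Which gene they belong to was not determined.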

How the results depend on the processing

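No paired analysis was possible because each condition has 1 library. Scaling to the shared peaks moved the window ratios to 0.710 at Zbtb7b, 0.799 at Cd4 and 0.790 at Cd8a and Cd8b1, beyond their intervals, and turned the size rule's 3 higher and 0 lower peaks to 0 and 3. Over the genome, higher peaks made up 86.7% of those past the rule under total-read scaling and 56.6% under this one. Scaling by reads outside union peaks gave 4 higher and 0 lower peaks in the windows. Peaks at Zbtb7b, Cd4 and Cd8a and Cd8b1 numbered 1, 7 and 3 at q under 1e-05, and 28, 46 and 17 with the genome rate alone. Zbtb7b had 6 with the 100-bp shift, 1 with a 5-kb background and 8 in the window made 20 kb longer on each side. The rule's higher peaks were 1 at q under 1e-05 and 5 at a ratio of 1.5, and its lower peaks 1 with the 5-kb background. At 1 RPM, enriched bins with no treatment named and with TGF-β plus IL-4 were 3 and 3 at Zbtb7b, 14 and 18 at Cd4, and 2 and 5 at Cd8a and Cd8b1. In 400-bp bins they were 5 and 9, 17 and 24, and 2 and 7. The 21 alternative values of window against window stayed within the intervals given, but for Cd4 against Cd8a and Cd8b1 in peak reads the interval with the top mapping quality (0.591 to 0.971) left out 1 and the main one did not. Of 70 values for single peaks 69 stayed within the peak's interval, and the exception was the strongest Cd4 peak, at 0.797 with scaling to the shared peaks. At 1 RPM and TGF-β plus IL-4 the share of bins was lower at Zbtb7b (0.75%) than at Cd8a and Cd8b1 (1%). Counts under 20 reads leave intervals that span several-fold, so weak peaks can show no moderate difference at this depth.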
